A study of Saccharomyces cerevisiae with 6 samples.

Results

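The trehalose genes of budding yeast were followed on 6 arrays: the trehalose synthase complex (TPS1, TPS2, TPS3 and TSL1) and the trehalases (NTH1, NTH2 and ATH1). The members are the 7 genes whose symbol in the probe annotation is one of these names, out of 5560 named genes, and each was represented by 1 probe. The series compared poly(A) RNA of wild-type Saccharomyces cerevisiae S288c, the reference laboratory strain, in pairs of dye-labelled samples. Rapamycin, a macrolide that inhibits the TOR kinase, was added to cells in MDN on 2 arrays, each against untreated cells in MDN, and to cells in YPD, a standard rich medium, on 2 arrays, each against untreated cells in YPD. A single array set untreated cells in MDN against untreated cells in YPD, and another set them against untreated cells in SCD. MDN and SCD are not spelled out in the labels, which give neither dose nor time for rapamycin.

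Trehalose is a glucose disaccharide that yeast stores as a reserve and that protects proteins and membranes under heat, drying and starvation. It is made from UDP-glucose and glucose 6-phosphate by the synthase Tps1, and the phosphatase Tps2 then removes the phosphate. Tsl1 and Tps3 are the related regulatory subunits of the same complex. Breakdown to glucose is carried out by the neutral trehalases Nth1, the main activity in the cytosol, and Nth2, its paralog, and by the acid trehalase Ath1, which uses trehalose outside the cell or in the vacuole. Protein kinase A activates Nth1, and high kinase activity holds down stress genes that are read through the transcription factors Msn2 and Msn4.

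Values were present for 5834 to 6121 of 6210 probes per array, and the medians of the arrays ranged from -0.09 to 0.07 in log2 units. Replicate arrays had r = 0.966 over all probes for rapamycin in MDN and r = 0.950 for rapamycin in YPD. The log2 ratios are read as rapamycin-treated over untreated, or as MDN over the other medium, since the labels give Cy5 to the treated or MDN sample. The files do not state which dye was divided by which, so this direction is likely rather than known, and all signs given here would turn together with it. No dye was swapped, so the dye effect of a probe and its response cannot be told apart on an array. Nothing in the labels says that replicate arrays came from separate cultures, and the spread that the p-values measure, between these arrays only, may therefore be technical. Each sample was bulk RNA of a culture, in which fewer cells expressing a gene and less RNA per cell cannot be told apart. Errors after ± are standard errors from limma (n = 2 arrays in each medium), and a gene was called changed at a Benjamini-Hochberg adjusted p under 0.05 over 5488 genes and unnamed probes.

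With rapamycin, NTH1 had the highest ratio of the trehalose genes in both media, rising 2.20-fold over untreated cells in MDN and 5.19-fold in YPD. TPS1 also rose in both media by similar amounts. TSL1 rose 2.86-fold in YPD and 1.21-fold in MDN. ATH1 and TPS3 rose in YPD, and NTH2 passed the test in neither medium. TPS2 lacked a value on YPD array 2 and was therefore outside the test.

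**Figure D1:**
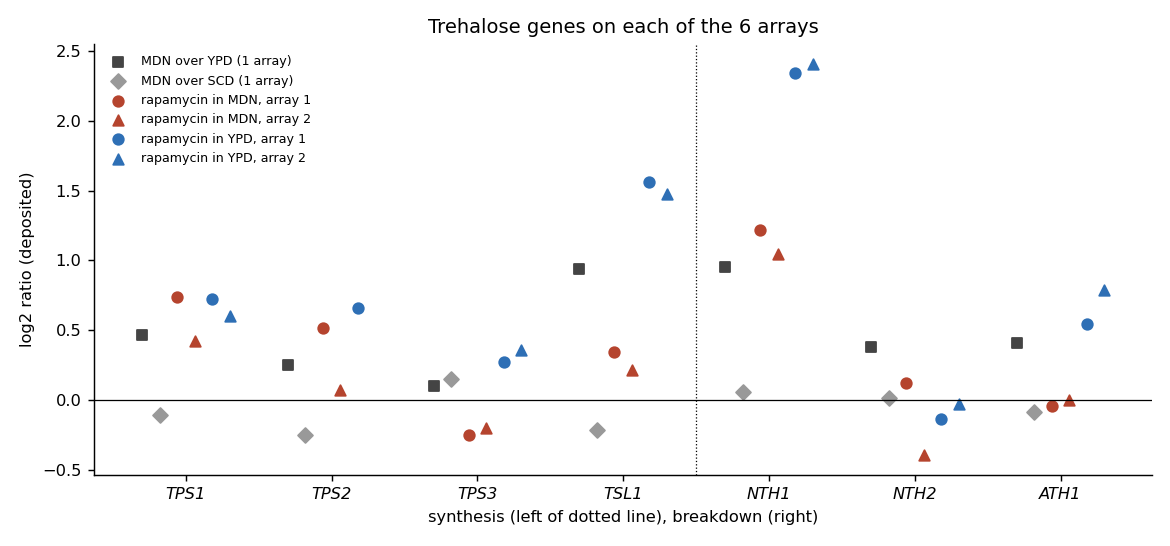
Deposited log2 ratio (vertical axis) of the 7 trehalose genes (horizontal axis) on the 6 arrays, with colour for the comparison and symbol for the array. NTH1 lies between 1.05 and 1.22 with rapamycin in MDN and between 2.34 and 2.41 in YPD, while the MDN over SCD values stay between -0.25 and 0.15.

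Among the synthesis genes, TPS1, the catalytic synthase, had log2 ratios of 0.74 and 0.42 on the MDN arrays and 0.72 and 0.60 on the YPD arrays. All 4 values were positive, and the MDN values overlapped those in YPD. TPS1 rose by 0.58 ± 0.11 in MDN (adjusted p = 0.00887) and by 0.66 ± 0.11 in YPD (adjusted p = 0.00421). The MDN call was lost with any 1 of the 4 rapamycin arrays left out (adjusted p between 0.0590 and 0.116), and the YPD call was lost without YPD array 1 (adjusted p = 0.0958) or YPD array 2 (adjusted p = 0.0724).

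TPS2, the trehalose 6-phosphate phosphatase, had log2 ratios of 0.52 and 0.07 on the MDN arrays and 0.66 on YPD array 1. The MDN arrays were far apart for this gene, and the single YPD value lay above both. In a fit that admits genes with at least 1 array per medium, TPS2 stood at 0.29 ± 0.14 in MDN (n = 2, adjusted p = 0.173) and did not pass. In YPD its value is that of 1 array, with no replicate check. The 95% interval in MDN ran from -0.12 to 0.71 on the log2 scale, so it includes the value of TPS1.

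TSL1, a regulatory subunit of the complex, had log2 ratios of 0.34 and 0.21 on the MDN arrays and 1.56 and 1.48 on the YPD arrays. Both YPD values lay well above both MDN values. The gene rose by 0.28 ± 0.08 in MDN (adjusted p = 0.0399) and by 1.52 ± 0.08 in YPD (adjusted p = 0.000129). The MDN call of TSL1 was lost after centring each array on its median (0.22, adjusted p = 0.0867) and with any 1 of the 4 arrays left out (adjusted p between 0.0659 and 0.261), and its YPD call held in all 4 of those fits.

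TPS3, the other regulatory subunit, had log2 ratios of -0.25 and -0.20 on the MDN arrays and 0.28 and 0.36 on the YPD arrays. The signs were opposite in the media. In MDN the mean was -0.23 ± 0.08 and did not pass (adjusted p = 0.0618), although it passed as lower after median centring (-0.28, adjusted p = 0.0357) and at equal array scale (-0.26, adjusted p = 0.0414). In YPD the gene rose by 0.32 ± 0.08 (adjusted p = 0.0187), a call lost with any 1 of the 4 arrays left out (adjusted p between 0.0520 and 0.0716). The paralogs TSL1 and TPS3 thus differed on every rapamycin array, with TSL1 minus TPS3 at 0.60 and 0.42 in MDN and 1.29 and 1.12 in YPD.

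Among the trehalases, NTH1 had log2 ratios of 1.22 and 1.05 on the MDN arrays and 2.34 and 2.41 on the YPD arrays. The groups were separated by more than 1 on the log2 scale. It rose by 1.13 ± 0.09 in MDN (adjusted p = 0.000584) and by 2.38 ± 0.09 in YPD (adjusted p = 4.88e-05), and both calls held with any 1 of the 4 arrays left out. NTH1 ranked 226 from the top among 5488 in MDN and 107 in YPD.

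NTH2, the paralog of NTH1, had log2 ratios of 0.12 and -0.40 on the MDN arrays and -0.14 and -0.03 on the YPD arrays. The MDN arrays disagreed in sign and enclosed both YPD values. The means of -0.14 ± 0.14 in MDN (adjusted p = 0.453) and -0.08 ± 0.14 in YPD (adjusted p = 0.629) did not pass, with 95% intervals from -0.50 to 0.23 and from -0.44 to 0.28. NTH1 minus NTH2 was 1.10 and 1.45 on the MDN arrays and 2.48 and 2.44 on the YPD arrays. The probes thus gave different ratios on all 4 arrays. These genes are close in sequence and their probes may share part of their signal, which was not tested.

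ATH1, the acid trehalase, had log2 ratios of -0.04 and 0.00 on the MDN arrays and 0.55 and 0.79 on the YPD arrays. Both YPD values lay above both MDN values. The mean in MDN was -0.02 ± 0.09 (adjusted p = 0.857, 95% interval -0.26 to 0.22), and in YPD the gene rose by 0.67 ± 0.09 (1.59-fold, adjusted p = 0.00260), a call that held with any 1 of the 4 arrays left out.

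By count, 3 of the 6 tested trehalose genes rose in MDN (TPS1, TSL1 and NTH1) and 0 fell, where limma called 54.1% of all 5488 genes and unnamed probes in either direction, 30.8% as higher and 23.3% as lower. In YPD 5 of 6 rose and 0 fell, where 66.3% of all were called, 34.3% as higher and 32% as lower. The MDN share of called members was close to the background. The median of the 6 members was 0.13 in MDN and 0.67 in YPD, beside 0.06 and 0.01 over all tested. Under median centring the MDN members split into 2 higher and 1 lower, and at equal array scale into 3 higher and 1 lower. With 1 array left out the MDN count was 1 in each of the 4 fits (NTH1), and the YPD count was 4 in the fits that lacked MDN array 1 or MDN array 2 and 3 in those that lacked YPD array 1 or YPD array 2. At least a 2-fold rise with a call was seen for NTH1 in MDN and for NTH1 and TSL1 in YPD, against 5.25% and 10.9% of all tested.

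**Figure D2:**
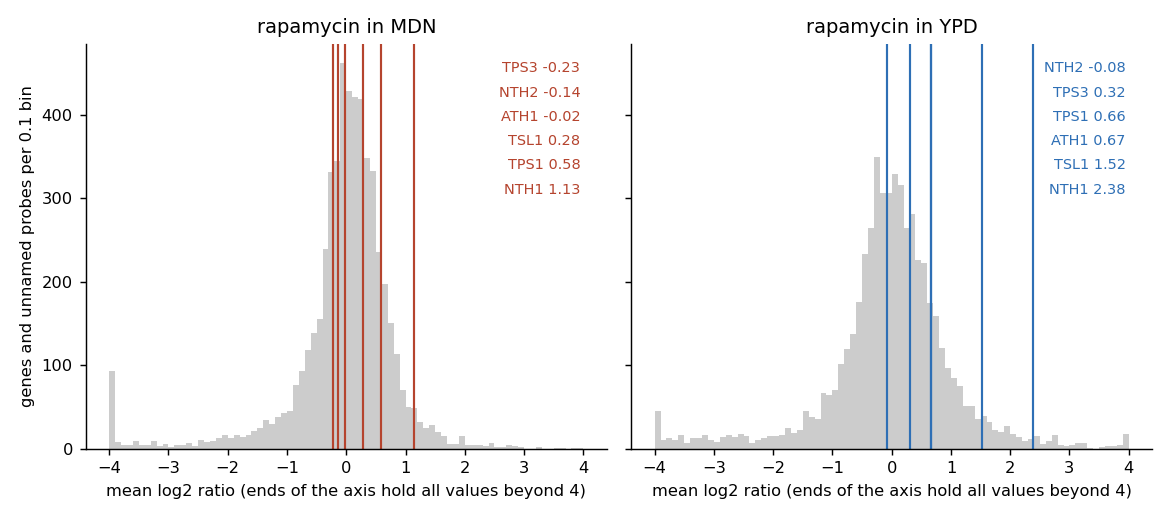
Histograms of the mean log2 ratio with rapamycin over 5488 genes and unnamed probes (horizontal axis; count per bin on the vertical axis) in MDN, left, and YPD, right, with vertical lines at the 6 tested trehalose genes. NTH1 stands in the upper tail in both media, at 1.13 and 2.38, and the other 5 lie between -0.23 and 0.58 in MDN and between -0.08 and 1.52 in YPD.

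The next comparison asked whether the response to rapamycin differed between MDN and YPD. It was lower in MDN for NTH1, TSL1, ATH1 and TPS3, and not detectably different for TPS1 and NTH2. For TPS3 the means had opposite signs, -0.23 in MDN, which did not pass, and 0.32 in YPD. NTH1 and TSL1 had nearly equal differences, -1.24 ± 0.12 (adjusted p = 0.00460) and -1.24 ± 0.12 (adjusted p = 0.00427). The MDN response of each was thus 0.42 times that in YPD. At equal array scale the differences were smaller and less alike, -0.82 ± 0.13 for NTH1 and -1.03 ± 0.12 for TSL1. Both calls held there (adjusted p = 0.00893 and 0.00433). ATH1 differed by -0.69 ± 0.13 (adjusted p = 0.0215) and TPS3 by -0.54 ± 0.11 (adjusted p = 0.0248). TPS1 differed by -0.08 ± 0.15 (adjusted p = 0.714, 95% interval -0.47 to 0.31) and NTH2 by -0.05 ± 0.20 (adjusted p = 0.863, 95% interval -0.57 to 0.46).

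Of the 6 tested members, 4 were thus lower in the MDN response and 0 higher, where limma called 29.5% of all tested, 14.6% as lower and 14.9% as higher in MDN. For these 4 genes both MDN values lay below both YPD values, a pattern seen in 32.6% of all tested, and the reverse held for 0 members and 36.4% of all. The member median was -0.62, beside 0.02 over all tested. With MDN array 1, MDN array 2, YPD array 1 or YPD array 2 left out, limma called 0 members and 0 of all genes, with between 1528 and 2171 genes at an unadjusted p under 0.05, and the same count of 4 members at that level in each fit. In those fits NTH1 ranged from -1.33 to -1.16 and TSL1 from -1.30 to -1.17.

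**Figure D3:**
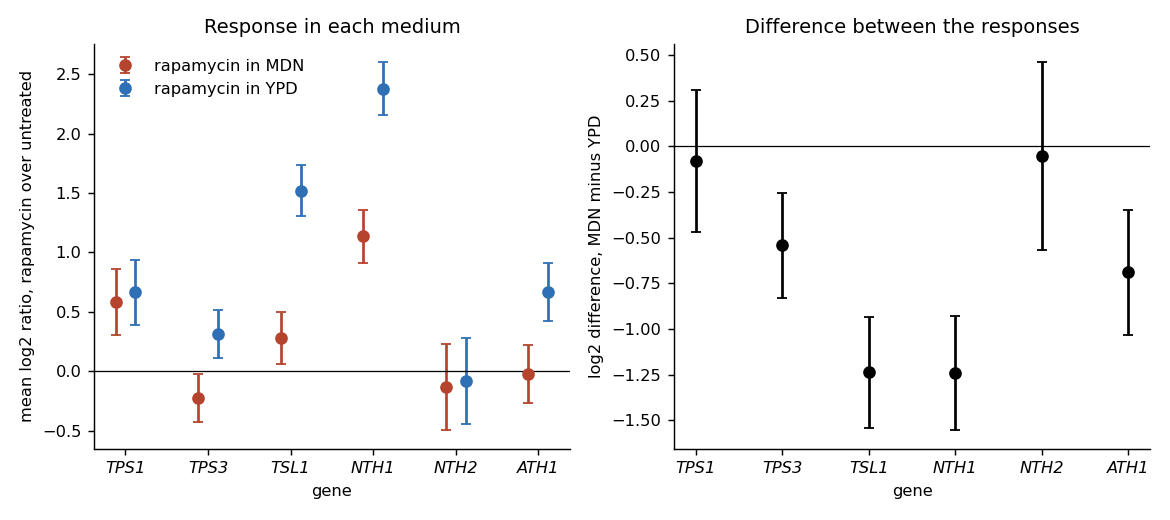
Left, mean log2 ratio with rapamycin for the 6 tested trehalose genes in MDN and YPD; right, the difference MDN minus YPD. Bars are 95% intervals from limma (n = 2 arrays in each medium), and those of the difference lie below 0 for TPS3, TSL1, NTH1 and ATH1 and cross 0 for TPS1 and NTH2.

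The medium arrays compared untreated cultures. All 7 trehalose genes had a ratio above 1 in MDN over YPD, with log2 values from 0.10 for TPS3 to 0.96 for NTH1 and a median of 0.41, beside -0.06 over all 6056 genes and unnamed probes, of which 42.4% were above 0. NTH1 and TSL1 were the highest, at 1.94-fold and 1.92-fold. TPS1 stood at 0.46, ATH1 at 0.41, NTH2 at 0.38 and TPS2 at 0.25. With 1 array there is no replicate check and no test. None reached 2-fold, as 5.89% of all did in either direction, but after median centring NTH1 and TSL1 did, so that the count of 0 became 2.

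In MDN over SCD the same genes lay close to 0, from -0.25 for TPS2 to 0.15 for TPS3, with a median of -0.09, which was also the median of all 5901. None was past 2-fold, and 3.37% of all were. NTH1 was at 0.06 and TSL1 at -0.22. Taking the difference of these arrays, SCD over YPD was 1.16 for TSL1 (2.23-fold), 0.90 for NTH1, 0.57 for TPS1 and -0.05 for TPS3. TSL1 was the only member past 2-fold there, where 4.9% of all were. The 3 medium comparisons share the MDN sample type, so they are not independent of each other.

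Related genes were counted in lists that were chosen with earlier results of these data known. In fits with 1 array left out a single residual degree of freedom remains, and calls over all genes fell as well. A lower list count in such a fit therefore need not be particular to the list. Enzymes that supply UDP-glucose and glucose 6-phosphate rose in 4 of 6 members in MDN and in 5 of 6 in YPD, with 1 falling in YPD, against the 30.8% and 34.3% called higher overall. PGM2, the main phosphoglucomutase, rose by 0.67 ± 0.12 in MDN and 1.36 ± 0.12 in YPD (adjusted p = 0.00870 and 0.000590). GLK1, a glucokinase, rose by 0.74 ± 0.12 and 1.26 ± 0.12. HXK2, the hexokinase of glucose-grown cells, fell by 0.85 ± 0.09 in YPD, and its response was higher in MDN by 0.77 ± 0.13 (adjusted p = 0.0154). The response of PGM2 was lower in MDN, at -0.69 ± 0.17 (adjusted p = 0.0405). That call was lost at equal array scale (adjusted p = 0.111) and with at least 1 array per medium admitted (adjusted p = 0.0504). For this difference 1 of the 6 was called higher, 1 lower and 4 neither, beside 14.9% higher and 14.6% lower of all tested. PGM2 and GLK1 were also high in MDN over YPD, at 1.43 and 1.42. Without MDN array 1 the members that rose numbered 0 in MDN and 2 in YPD, without MDN array 2 they numbered 1 and 2, without YPD array 1 they numbered 2 and 3, and without YPD array 2 they numbered 2 and 2.

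Glycogen, the other glucose store, is made by glycogenin, glycogen synthase and branching enzyme. Of its 8 enzymes 7 were tested, since GDB1 lacked a value on MDN array 1. GDB1 had 1.12 on MDN array 2 and 1.49 and 1.52 on the YPD arrays. Of the 7 tested, 3 rose and 1 fell in MDN, and 5 rose in YPD. The shares of all tested were 30.8% higher and 23.3% lower in MDN and 34.3% higher in YPD. At equal array scale 5 rose in MDN, and 0 fell there in the fit that admits genes with at least 1 array per medium. GLC3, the branching enzyme, rose 1.80-fold in MDN and 2.83-fold in YPD. GSY2, the main glycogen synthase, rose by 0.38 ± 0.11 in MDN (adjusted p = 0.0406) and by 1.39 ± 0.11 in YPD (adjusted p = 0.000417). Its MDN call was lost after median centring (0.32, adjusted p = 0.0650) and with any 1 of the 4 arrays left out (adjusted p between 0.0570 and 0.327). GLG1, a glycogenin, rose by 1.65 ± 0.08 in YPD and stood at 0.17 ± 0.08 in MDN (adjusted p = 0.139). For the difference between the media, 3 of the 7 were called lower in MDN, 0 higher and 4 neither, beside 14.6% lower and 14.9% higher of all tested. Those called were GLC3, GSY2 and GLG1, with log2 differences of -0.65, -1.02 and -1.48 in that order (adjusted p = 0.0180, 0.0135 and 0.00250). The call of GLC3 was lost at equal array scale (adjusted p = 0.0714). Of these enzymes, 1 rose in MDN without MDN array 1 and 0 without MDN array 2, and 0 fell in either fit. Without YPD array 2 those that rose in YPD numbered 3.

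Regulators of the stress and protein kinase A pathways numbered 13 tested, of which 4 rose and 0 fell in MDN, and 4 rose and 2 fell in YPD. The shares that rose were near those of all tested, 30.8% in MDN and 34.3% in YPD, and 23.3% and 32% of all fell. PDE1, the low-affinity cyclic AMP phosphodiesterase, rose by 1.08 ± 0.08 in MDN and 2.01 ± 0.08 in YPD. MSN4, the stress transcription factor, rose by 1.01 ± 0.14 and 2.01 ± 0.14. YAK1, a kinase that opposes protein kinase A, rose by 0.78 ± 0.09 and 0.90 ± 0.09. The MDN response was smaller for PDE1, at 0.52 times that in YPD (adjusted p = 0.00776), and for MSN4, at 0.50 times (adjusted p = 0.0224). The MSN4 call was lost at equal array scale (adjusted p = 0.0579). These were the 2 of 13 called lower for the difference, with 0 higher and 11 neither. That share was near the 14.6% of all tested called lower, and the list median was -0.01. Without MDN array 1 those that rose in MDN numbered 1. Those that fell in YPD numbered 1 at equal array scale, 0 without YPD array 1 and 1 without any other single array.

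General stress genes rose in 14 of 15 members in each medium, against 30.8% and 34.3% of all tested, with list medians of 1.24 in MDN and 1.81 in YPD, above those of the trehalose genes. HSP26, a small heat shock protein, and ALD3, an aldehyde dehydrogenase, were the highest in MDN, and ALD3 stood at 2.17 ± 0.14. DCS2 rose by 2.00 ± 0.14 in MDN and 2.85 ± 0.14 in YPD, and TFS1, an inhibitor of carboxypeptidase Y, by 2.76 ± 0.11 in YPD. Their MDN responses were smaller, with differences of -0.85 for DCS2 and -1.12 for TFS1 (adjusted p = 0.0333 and 0.0101), and the DCS2 call was lost at equal array scale (-0.25, adjusted p = 0.290). Of the 15, 4 had a smaller and 2 a larger response in MDN, beside 14.6% and 14.9% of all tested. The list median of the difference MDN minus YPD was -0.03, beside 0.02 over all tested. The called differences went in both directions, so this median does not show that the listed genes responded alike in the media. HSP12, a membrane-associated stress protein, had the highest MDN over YPD value of the list, 4.02. It stood at 0.38 ± 0.25 for rapamycin in MDN (adjusted p = 0.246) and rose by 1.81 ± 0.25 in YPD. Its difference MDN minus YPD was -1.43 ± 0.35 (adjusted p = 0.0362). Without MDN array 1, 7 members rose in MDN.

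Among the proteins tied to trehalase or trehalose uptake, 3 of 5 rose in each medium and 1 fell in each, where limma called 54.1% of all tested in MDN and 66.3% in YPD, 30.8% and 34.3% as higher. The fall in YPD was lost at equal array scale and in the fit that admits genes with at least 1 array per medium. DCS1, a decapping enzyme described as an inhibitor of Nth1, rose by 0.98 ± 0.11 in MDN and 1.30 ± 0.11 in YPD. BMH2, one of the phosphoprotein-binding adaptors that hold Nth1 active, rose by 0.58 ± 0.09 and 0.68 ± 0.09. Its paralog BMH1 fell by 0.25 ± 0.08 in MDN (adjusted p = 0.0434) and stood at 0.22 ± 0.08 in YPD (adjusted p = 0.0538), a difference of -0.47 ± 0.11 (adjusted p = 0.0325). DCS2, also counted among the stress genes, is the paralog of DCS1. Of the members that rose in MDN, 0 passed without MDN array 1 and 1 without MDN array 2, and with any 1 of the 4 arrays left out the members that fell numbered 0 in both media.

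No gene of these lists passed for the difference between the media with any 1 of the 4 rapamycin arrays left out, where limma called 0 of all genes.

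**Figure D4:**
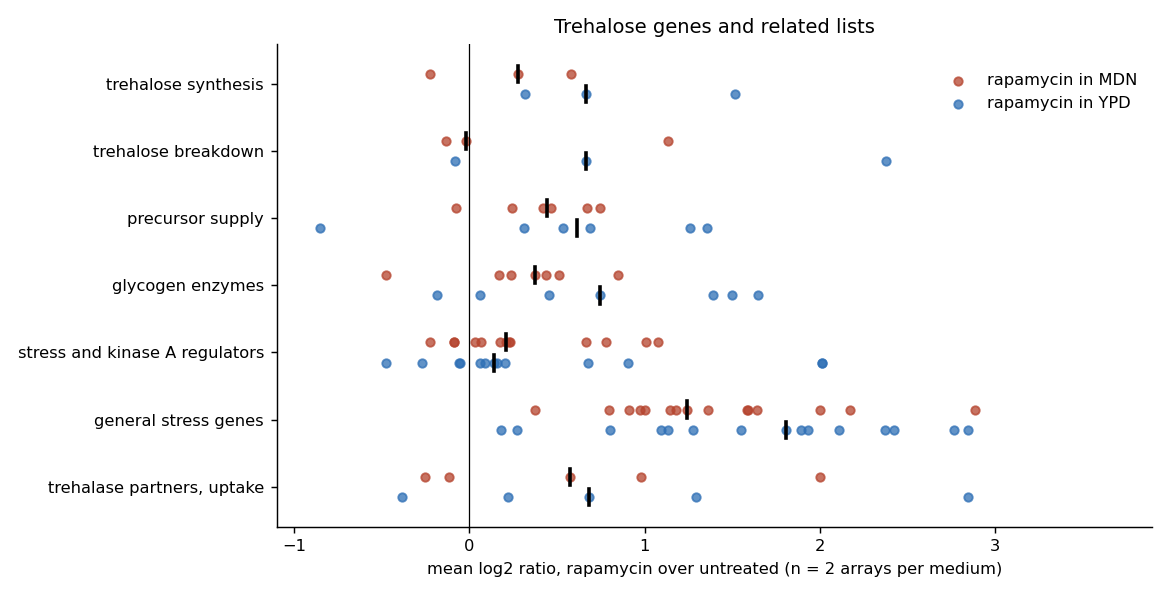
Mean log2 ratio with rapamycin (horizontal axis, n = 2 arrays per medium) for each tested gene of the trehalose groups and the related lists (rows), in MDN (upper points of each row) and YPD (lower points), with a black mark at each list median. The general stress genes have medians of 1.24 and 1.81, above those of trehalose synthesis, 0.28 and 0.66, and breakdown, -0.02 and 0.67.

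NTH1 and TSL1 were the members with values on all 6 arrays that ranged over at least 1 on the log2 scale, by 2.35 and 1.78. For these the genes with the most similar values were sought among 4875 other named genes, as the lowest mean absolute difference of log2 ratios over the 6 arrays, which is a description of these arrays. The nearest to TSL1 was GLG1 at 0.11, followed by AYR1, an acyl-dihydroxyacetone-phosphate reductase, at 0.16 and GSY2 at 0.18, where the median gene was at 0.84. GLG1 had 0.78 in MDN over YPD, -0.18 in MDN over SCD, 0.23 and 0.11 with rapamycin in MDN, and 1.61 and 1.68 with rapamycin in YPD. The nearest to NTH1 were SED1, a cell wall protein, at 0.15, RIB5, riboflavin synthase, at 0.19 and ATG33, a mitophagy protein, at 0.21, where the median gene was at 1.36. SED1 had 1.11 in MDN over YPD, 0.00 in MDN over SCD, 1.06 and 0.89 with rapamycin in MDN, and 2.61 and 2.30 with rapamycin in YPD. Another trehalose gene was among the nearest 3 for neither of them.

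**Figure D5:**
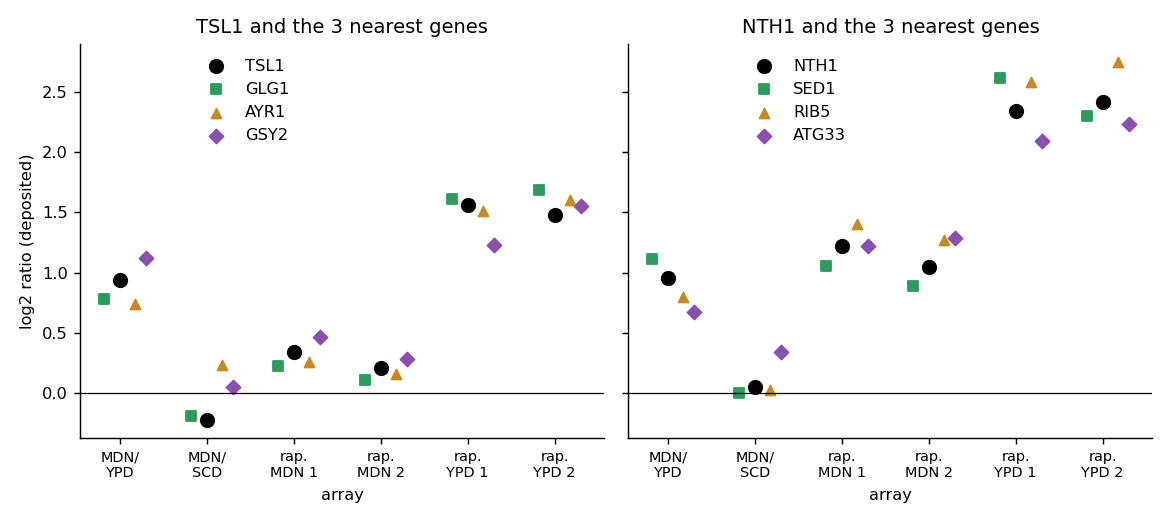
Deposited log2 ratio (vertical axis) on the 6 arrays (horizontal axis) for TSL1, left, and NTH1, right, each with the 3 named genes of lowest mean absolute difference. TSL1, GLG1 and GSY2 lie between 0.11 and 0.46 with rapamycin in MDN and between 1.23 and 1.68 in YPD.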

How the data were processed

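The deposited table holds log2 ratios, 6210 probes by 6 arrays of 2 channels, as the authors made them; raised to the power of 2, 100% of values were whole multiples of 0.01 (tolerance 0.0001), and scale was read from this. Cy3 carried the untreated, YPD or SCD sample and Cy5 the rapamycin or MDN sample, per the labels. For scanner, background correction and normalization, the sources used here say nothing. A single symbol was given for 5595 probes by the platform annotation, 0 had several and 615 were unnamed; all 7 members matched RefSeq by gene number and symbol. Probes of 1 gene were averaged.

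The 4 rapamycin arrays were fitted with limma 3.58.1 in R 4.3.3 (a mean per medium, eBayes, two-sided, Benjamini-Hochberg adjustment over 5488 rows complete on these arrays, 2 residual and 3 prior degrees of freedom). Medium arrays had no test; a log2 size of 1 was counted. The number of arrays limits the precision. In simulated data with 50 of 5488 genes changed by each fold, the MDN test recovered 48% at 1.5-fold, 96% at 2-fold, 98% at 4-fold and 100% at 8-fold. At the same folds the YPD test recovered 50%, 90%, 100% and 100%, and the test of MDN minus YPD 2%, 66%, 94% and 98%. Far fewer genes were changed there than were called in the data, 2968 in MDN, 3638 in YPD and 1620 for the difference. The Benjamini-Hochberg cut-off depends on that share, so these recoveries are not those of the tests on the data.

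Alternatives were median centring, equal array scale (normalizeMedianAbsValues in limma), at least 1 array per medium, separate probes, a replicate block, a robust prior, a fold rule, ratios floored at 0.05 and each array left out. The members and lists were chosen with earlier results of these data known. Genes outside the members were named by rule: at most 3 per list and comparison with the largest absolute value, and the 3 most similar in value to a member. Same-numbered arrays of the media had deviations correlating at -0.10 across genes, so they shared no positive deviation. This cannot tell whether the arrays were paired, which the labels do not state. Figures used matplotlib 3.10.9.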

Additional observations from a re-analysis of the deposited data

Results flagged for a closer look

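The response to rapamycin differed between MDN and YPD for 4 trehalose genes by limma's test of the difference itself (MDN minus YPD, log2, n = 2 arrays per medium). The values were -1.24 for NTH1, -1.24 for TSL1, -0.69 for ATH1 and -0.54 for TPS3, with both MDN arrays below both YPD arrays for each. Of all genes and unnamed probes tested, 14.6% were called lower in MDN, and 32.6% had both MDN arrays below both YPD arrays.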

How the results depend on the processing

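Trehalose genes were called 3, 5 and 4 times for rapamycin in MDN, in YPD and for the difference MDN minus YPD, and all genes and probes 2968, 3638 and 1620 times. Requiring 2-fold as well gave 1, 2 and 2 members, and 758, 1229 and 496 of all. With 1 array left out, members numbered 1 to 1, 3 to 4 and 0 to 0, and all genes 517 to 2617, 2394 to 2932 and 0 to 0, since a single residual degree of freedom remains. Other settings kept these counts within 1.5 times. The replicate block gave 2, 5 and 3 members and 2709, 3417 and 1185 of all genes. It lost TSL1 in MDN (adjusted p = 0.0661) and TPS3 for the difference (adjusted p = 0.0525). In the labels the arrays share only a number, so whether they were paired is not known. The crossed pairing, added after seeing the data, gave 2, 5 and 4 members. On the medium arrays, median centring moved the members past 2-fold in MDN over YPD to 2. A fold of 1.5 gave 2 members for MDN over YPD and 2 for SCD over YPD, and 1167, 594 and 1080 of all (357, 199 and 285 at 2-fold) for MDN over YPD, MDN over SCD and SCD over YPD; a fold of 4 gave 83, 51 and 34 of all, and 0 members for SCD over YPD. Signs turned for uncalled values. NTH2 in MDN lay between -0.40 (without MDN array 1) and 0.12 (without MDN array 2), and its difference between -0.31 and 0.21 in the same fits and at 0.00026 without YPD array 2. The TPS1 difference lay between -0.24 and 0.077 in those fits, and was 0.068 at equal array scale. The cause was not tested. Of 234 values of tested members under alternatives, 186 kept their direction and side of the threshold. Several alternatives, such as the robust prior, the replicate block and the fold rule, leave the estimate itself unchanged. The direction could not turn in those, so this count is not a measure of robustness.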

Other observations

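Rapamycin-treated MDN cultures can be set against untreated YPD cultures by adding the MDN over YPD ratio to the mean rapamycin ratio in MDN, an indirect value with no test that assumes the untreated MDN samples were alike. For NTH1 this sum was 2.09, beside 2.38 for rapamycin in YPD, and for TSL1 it was 1.22, beside 1.52. For TPS1 it was 1.05, beside 0.66, for ATH1 0.39, beside 0.67, for TPS3 -0.13, beside 0.32, and for NTH2 0.24, beside -0.08. For TPS2 it was 0.54, beside 0.66 on the single YPD array with a value.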
